A study of Mus musculus with 15 samples.

Results

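The 10 genes described here encode the 5 NF-kB subunits, Rel, Rela, Relb, Nfkb1 and Nfkb2, and 5 proteins that restrain or modulate them, Nfkbia, Nfkbib, Nfkbie, Nfkbiz and Tnfaip3. They were selected by symbol, with earlier results of these data known, and all 10 symbols were found among the 38924 gene identifiers counted and among the 14456 genes tested, those with CPM (counts scaled by library size) above 1 in at least 3 libraries. RNA was sequenced from 5 sorted mononuclear phagocyte (MP) subtypes of naïve C57BL/6 mice, untreated and 6 to 8 weeks old by the labels, with 3 libraries each. The spleen gave Ly6C+CD11b+ monocytes, CD8+CD11c+MHCII+ dendritic cells (DC1) and CD4+CD11c+MHCII+ DCs (DC2), and the lymph nodes (LNs) of the lung gave CD103+CD11c+MHCII+ DCs (DC1) and CD11b+CD11c+MHCII+ DCs (DC2). No mutant allele, transgene or agent is named for any group, each library pooled 5 mice, and all animals were female. LN and spleen came from different cohorts, and the LN gate took migratory DCs by high MHC class II, so organ, cohort and gate cannot be told apart. In sorted bulk RNA, fewer cells of a type and less RNA per cell cannot be told apart either. All values are CPM scaled by the TMM method unless TPM, which divides by gene length, is named.

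NF-kB proteins act as dimers. Rela, Rel and Relb carry activation domains, whereas Nfkb1 and Nfkb2 are made as the precursors p105 and p100 and give the DNA-binding proteins p50 and p52. In the canonical pathway, receptors of the TNF, IL-1 and Toll-like families activate the IKK complex, which marks the inhibitors of the IkB family for destruction and frees dimers of Rela or Rel with p50. In the noncanonical pathway, receptors such as CD40 stabilize the kinase NIK (Map3k14), p100 is processed to p52, and dimers of Relb and p52 enter the nucleus. Several of the inhibitor genes are themselves NF-kB targets and close a feedback loop, and Relb is known as a factor of DC development and maturation.

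Sequence upstream of the genes was read from RefSeq promoters (GRCm38.p6), which held 7 of the 10 genes and not Relb, Nfkb1 or Nfkbiz. The 250 bases before each annotated start were searched on both strands for the kB consensus, a motif of 10 letters. The consensus was found in 5 of the 7 genes, Nfkb2, Nfkbia, Tnfaip3, Rel and Nfkbie, and not in Rela or Nfkbib, against 4.46% of the 27025 genes with such windows. Windows of Nfkb2, Nfkbia and Tnfaip3, which are among the members that differed most between LN and spleen, are printed 5′ to 3′ on the strand of the gene with the matches in capitals:
Nfkb2, chr19:46304487-46304736, plus strand: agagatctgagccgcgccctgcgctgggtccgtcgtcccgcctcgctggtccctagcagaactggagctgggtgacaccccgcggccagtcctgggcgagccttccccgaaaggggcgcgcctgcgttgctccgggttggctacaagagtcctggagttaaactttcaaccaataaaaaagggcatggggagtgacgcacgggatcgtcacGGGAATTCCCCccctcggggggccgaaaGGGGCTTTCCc
Nfkbia, chr12:55492648-55492897, minus strand: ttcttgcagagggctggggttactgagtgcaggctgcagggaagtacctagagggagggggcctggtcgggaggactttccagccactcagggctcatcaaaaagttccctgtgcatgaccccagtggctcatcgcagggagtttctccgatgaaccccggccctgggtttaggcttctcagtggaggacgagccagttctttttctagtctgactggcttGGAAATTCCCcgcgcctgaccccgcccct
Tnfaip3, chr10:19015411-19015660, minus strand: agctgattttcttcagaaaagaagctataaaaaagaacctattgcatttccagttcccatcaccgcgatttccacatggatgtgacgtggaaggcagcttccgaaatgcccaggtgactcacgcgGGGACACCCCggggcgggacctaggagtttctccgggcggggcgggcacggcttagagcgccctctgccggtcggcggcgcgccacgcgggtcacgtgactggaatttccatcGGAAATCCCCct

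The Nfkb2 window holds 4 matches, 3 of which overlap within the first capital run, and the second run ends 2 bases before the start. The Nfkbia window holds 1 match, GGGAATTTCC on the opposite strand, 20 to 29 bases before the start. Tnfaip3 holds 2 matches, GGGACACCCC at 116 to 125 bases and GGGGATTTCC on the opposite strand at 3 to 12 bases before the start. In Rel, GGGAAATCCC lay 83 to 92 bases before the start and overlaps 2 matches on the opposite strand, and in Nfkbie GGGGGATTCC lay 97 to 106 bases before it. Windows not printed were chr19:46305445-46305694 and chr19:46305680-46305929 of Nfkb2, with 1 match each, and chr10:19011964-19012213 of Tnfaip3, with 0. Nfkbib, without a match, was also higher in every LN DC library than in every splenic DC library. Matches and the lack of one describe the letters of the windows and were not tested for binding or for a link to expression.

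The libraries held 4531243 to 10233914 counts on genes, of which the 10 members took 0.160% to 1.11%, so that no member rested on fewer than 261 counts in a library. The genes of the sort markers were only in part highest where the labels place them. Cd8a measured 353 to 658 CPM in CD8+ splenic DCs and at most 19.2 CPM in any other library, Cd4 85.1 to 213 CPM in CD4+ splenic DCs and at most 58.9 CPM elsewhere, and Ly6c2 711 to 1027 CPM in monocytes and at most 17.2 CPM elsewhere. Itgae, which encodes CD103, measured 18.4 to 37.1 CPM in CD103+ LN DCs and 1.54 to 5.52 CPM in CD11b+ LN DCs, but 78.9 to 142 CPM in CD8+ splenic DCs. H2-Ab1, an MHC class II gene, measured 835 to 2996 CPM in CD103+ LN DCs, which were gated on high MHC class II protein, and 19040 to 21740 CPM in CD8+ splenic DCs. Itgax, which encodes CD11c, measured 541.7 to 616 CPM in CD8+ and 738.5 to 997.5 CPM in CD4+ splenic DCs. In LN it measured 77.14 to 110.3 CPM in CD103+ and 231.7 to 342.1 CPM in CD11b+ DCs, against 58.35 to 70.06 CPM in monocytes. Itgam, which encodes CD11b, measured 83.48 to 125.3 CPM in CD11b+ LN DCs, 282.4 to 392.1 CPM in CD4+ splenic DCs and 1060 to 1191 CPM in monocytes. The summed level of 5 migratory DC markers was 7798 to 14650 CPM in LN DCs and 256 to 680.5 CPM in splenic DCs. The 6 DC1 markers summed to 3880 to 5751 CPM in CD8+ and 143.8 to 182.9 CPM in CD4+ splenic DCs. In LN they summed to 687.3 to 1026 CPM in CD103+ and 272.8 to 455.9 CPM in CD11b+ DCs. Batf3 (70.22 to 84.68 and 65.77 to 87.19 CPM) and Tlr3 (3.408 to 13.97 and 1.773 to 6.927 CPM) overlapped between these LN subtypes. The 6 DC2 markers summed to 1624 to 2424 CPM in CD4+ and 110.2 to 284.5 CPM in CD8+ splenic DCs. In LN these summed to 727.7 to 901.6 CPM in CD11b+ and 82.53 to 108.5 CPM in CD103+ DCs, with Esam overlapping (31.1 to 44.75 and 37.74 to 58.04 CPM). Markers of other cells differed between organs and lineages as well. The summed level of 7 T cell markers, all detected, was 77.5 to 129.6 CPM in LN DCs and 4.29 to 24.2 CPM in splenic DCs, and that of 8 B cell markers was 16.4 to 246.5 CPM in CD103+ LN DCs, 45.2 to 97.4 CPM in CD11b+ LN DCs and 32.6 to 110.3 CPM in splenic DCs. Of 6 neutrophil markers, at most 3 were detected in a DC subtype, with a sum of at most 1.56 CPM, whereas all 6 were detected in monocytes, with a sum of 141.5 to 239 CPM, led by Ngp (80.9 to 136 CPM) and Ltf (42.7 to 58.9 CPM), and with Ly6g at no more than 0.410 CPM. The 7 macrophage markers summed to 1066 to 1187 CPM in CD4+ and 164.1 to 275 CPM in CD8+ splenic DCs. In LN they summed to 568.1 to 792.3 CPM in CD11b+ and 211.5 to 250.4 CPM in CD103+ DCs. The 6 monocyte markers summed to 568.1 to 689.3 CPM in CD4+ and 158.6 to 252.6 CPM in CD8+ splenic DCs. In LN their sum was 604.8 to 831.6 CPM in CD11b+ and 30.46 to 52.43 CPM in CD103+ DCs. The 5 erythroid markers reached 243.9 CPM in splenic DCs and 51.83 CPM in LN DCs. The part of these cells or genes in the differences below was not tested.

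All 10 genes differed among the 5 subtypes (edgeR quasi-likelihood test, Benjamini-Hochberg adjusted p at most 2.90e-05), as did 73.5% of all genes tested. The subtype means of Relb spanned 4.62 on the log2 scale, those of Tnfaip3 3.44 and those of Nfkbia 2.58, and the other 7 members spanned 1.60 to 2.39.

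**Figure D1:**
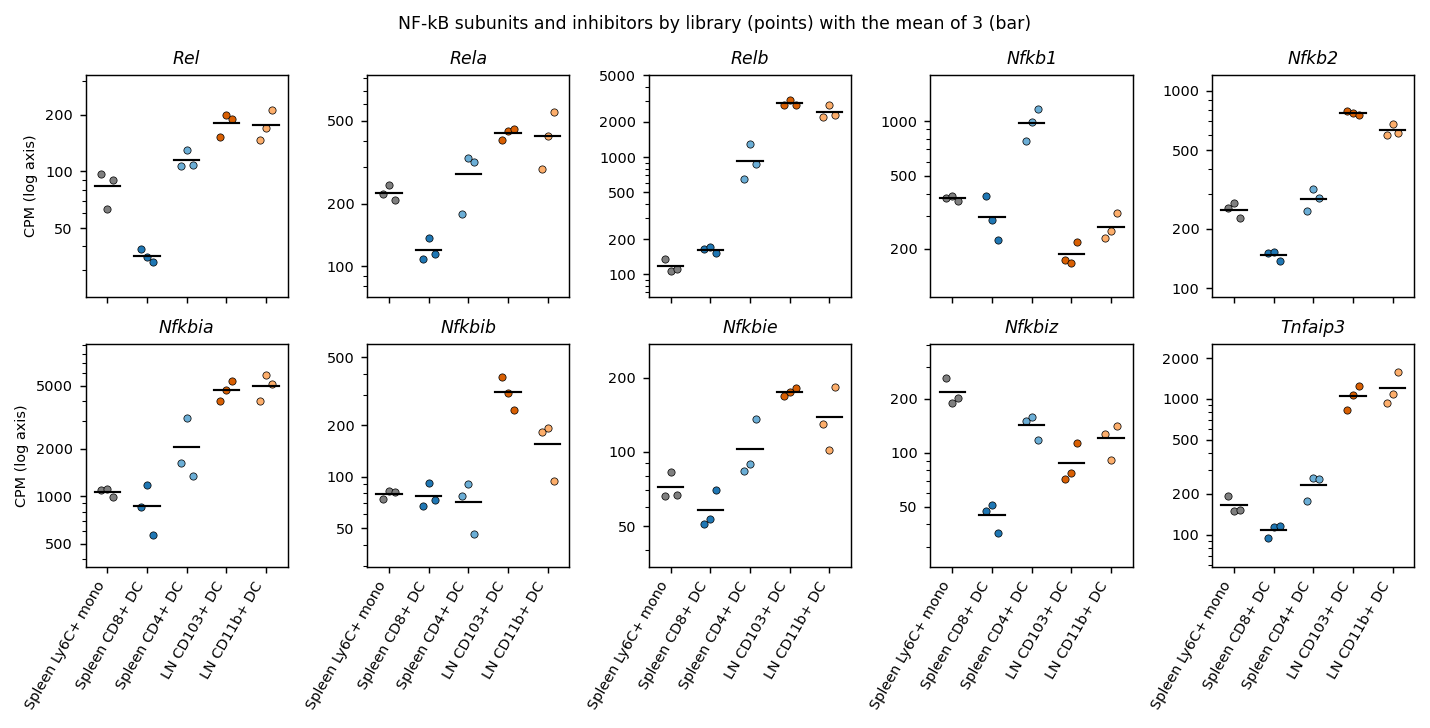
CPM of the 10 genes (log axis) in each of the 15 libraries (points) with the mean of 3 libraries (bar), by subtype. Relb, Nfkb2, Nfkbia and Tnfaip3 are higher in all 6 LN DC libraries than in every splenic library, whereas Nfkb1 is highest in CD4+ splenic DCs and Nfkbiz in monocytes.

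Relb (ENSMUSG00000002983, chr7:19606217-19629438), the subunit of the noncanonical pathway, had the widest range. It measured 2772, 3064 and 2795 CPM in the 3 libraries of CD103+ LN DCs, 2202, 2803 and 2301 CPM in CD11b+ LN DCs and 647, 1284 and 871 CPM in CD4+ splenic DCs. CD8+ splenic DCs held 164, 169.7 and 152 CPM and monocytes 135, 106 and 112 CPM. The levels fell into 3 tiers without overlap, both LN subtypes at the top, CD4+ splenic DCs between, and CD8+ splenic DCs with monocytes at the bottom. Within DC1, Relb was 17.8-fold higher in LN than in spleen (log2 fold change 4.15, SE 0.25, adjusted p = 4.14e-10), and within DC2 it was 2.61-fold higher (log2 fold change 1.38, SE 0.22, adjusted p = 8.56e-05). The difference between the LN subtypes did not pass the threshold (95% interval of the log2 difference -0.22 to 0.70, adjusted p = 0.551), nor did that between CD8+ splenic DCs and monocytes (adjusted p = 0.102), although every monocyte library lay below every CD8+ DC library.

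Rel (ENSMUSG00000020275, chr11:23741514-23770970), which encodes c-Rel, and Rela (ENSMUSG00000024927, chr19:5637483-5648130), which encodes p65, are the activating subunits of the canonical pathway. Rel measured 153, 199.9 and 189 CPM in CD103+ LN DCs, 146, 170.1 and 212 CPM in CD11b+ LN DCs and 107, 130.1 and 107 CPM in CD4+ splenic DCs. It fell to 38.8, 35.2 and 33.1 CPM in CD8+ splenic DCs, below every library of the other subtypes, and stood at 96.8, 63.0 and 90.3 CPM in monocytes. The organ difference of Rel was 5.06-fold in DC1 (log2 fold change 2.34, SE 0.21, adjusted p = 4.76e-08) and 1.53-fold in DC2 (log2 fold change 0.62, SE 0.20, adjusted p = 0.0232). In DC2 this call was lost without CD4+ splenic DC replicate 1 or 3 or CD11b+ LN DC replicate 3 (adjusted p = 0.0693, 0.0608 and 0.106) and in a fit of only the subtypes compared (adjusted p = 0.0985).

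Rela measured 436 ± 28.9 CPM (mean ± SD, n = 3 libraries, as in the values that follow) in CD103+ LN DCs, 423 ± 128 in CD11b+ LN DCs, 277 ± 84.95 in CD4+ splenic DCs, 225 ± 19.5 in monocytes and 120.0 ± 15.4 in CD8+ splenic DCs. The organ difference in DC1 was 3.63-fold (log2 fold change 1.86, SE 0.25, adjusted p = 5.49e-06). In DC2 the libraries overlapped, since CD11b+ LN DC replicate 1 (294 CPM) lay below replicates 2 and 3 of CD4+ splenic DCs (333 and 319 CPM), and the difference did not pass the threshold (log2 fold change 0.61, SE 0.24, adjusted p = 0.0571). With the replicate number as a block it did (log2 fold change 0.62, adjusted p = 0.0174), as it did with no filter on low counts (0.0451) and without CD4+ splenic DC replicate 2 or 3 (0.0353 and 0.0464) or CD11b+ LN DC replicate 1 (0.0164).

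The precursor genes moved in opposite directions between the organs. Nfkb2 (ENSMUSG00000025225, chr19:46304737-46312090) measured 792, 774 and 752 CPM in CD103+ LN DCs and 599, 683 and 615 CPM in CD11b+ LN DCs, against 246, 319 and 288 CPM in CD4+ splenic DCs, 151, 153 and 138 CPM in CD8+ splenic DCs and 255, 270.1 and 226 CPM in monocytes. It was 5.23-fold higher in LN for DC1 (log2 fold change 2.39, SE 0.17, adjusted p = 3.47e-09) and 2.22-fold higher for DC2 (log2 fold change 1.15, SE 0.17, adjusted p = 2.71e-05). Nfkb1 (ENSMUSG00000028163, chr3:135584655-135691547) was instead highest in CD4+ splenic DCs, at 777, 984 and 1166 CPM, followed by monocytes at 378, 389 and 365 CPM and CD8+ splenic DCs at 390.4, 285 and 224 CPM. In CD11b+ LN DCs it measured 229, 249 and 315 CPM and in CD103+ LN DCs 172, 167 and 218 CPM, the latter below every splenic library. Nfkb1 was 3.69-fold lower in LN for DC2 (log2 fold change -1.89, SE 0.22, adjusted p = 3.19e-06) and 1.61-fold lower for DC1 (log2 fold change -0.69, SE 0.22, adjusted p = 0.0147). In DC1 the call was lost without CD8+ splenic DC replicate 1 (adjusted p = 0.113) or CD103+ LN DC replicate 1 or 2 (0.0531 and 0.0643).

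To set the genes beside each other, their deposited TPM, a level per length, was expressed as a share of the 5 subunits. The summed TPM of the subunits was 2798 ± 88.1 in CD103+ LN DCs, 2618 ± 275 in CD11b+ LN DCs, 1664 ± 324 in CD4+ splenic DCs, 770.0 ± 48.4 in monocytes and 496 ± 60.05 in CD8+ splenic DCs. Relb made up 59.7 ± 1.17% of it in CD103+ LN DCs and 57.4 ± 4.06% in CD11b+ LN DCs, but 35.2 ± 5.25% in CD4+ splenic DCs, 20.3 ± 1.29% in CD8+ splenic DCs and 10.1 ± 1.15% in monocytes. The share of Nfkb1 ran the other way, from 30.6 ± 4.48% in CD4+ splenic DCs, 30.1 ± 5.69% in CD8+ splenic DCs and 26.5 ± 0.727% in monocytes to 3.14 ± 0.514% in CD103+ LN DCs and 5.07 ± 0.765% in CD11b+ LN DCs. In every LN library Relb alone exceeded the other 4 subunits together, and in no splenic library did it.

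**Figure D2:**
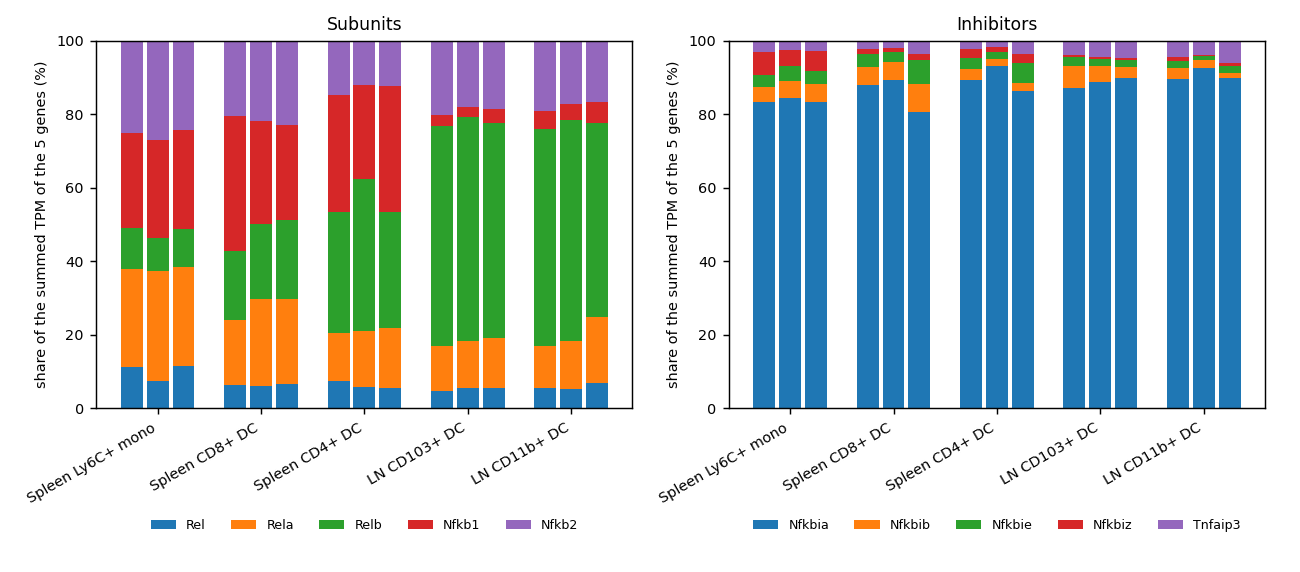
Share of the summed TPM of the 5 subunits (left) and of the 5 inhibitors (right) taken by each gene, in percent, with 1 bar per library in groups of 3. Relb takes 52.7% to 60.9% of the subunit TPM in LN DC libraries and 8.98% to 41.2% in splenic libraries, whereas Nfkbia takes 80.7% to 93.1% of the inhibitor TPM in every library.

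Per length, the ratio of Nfkb2 to Nfkb1 was 6.68, 6.71 and 5.01 in the CD103+ LN DC libraries and 3.80, 3.99 and 2.84 in CD11b+ LN DCs. In CD4+ splenic DCs it was 0.460, 0.471 and 0.359, in CD8+ splenic DCs 0.563, 0.781 and 0.896 and in monocytes 0.982, 1.01 and 0.899, so that Nfkb2 exceeded Nfkb1 in all 6 LN libraries and in 1 of 9 splenic libraries. The ratio of Relb to Rela was below 1 in all monocyte libraries (0.424, 0.301 and 0.376), near 1 in CD8+ splenic DCs (1.06, 0.864 and 0.924), 2.52, 2.70 and 1.91 in CD4+ splenic DCs and between 2.92 and 5.23 in LN DCs.

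Nfkbia (ENSMUSG00000021025, chr12:55489411-55492647) encodes IkBa, the inhibitor that retains canonical dimers in the cytoplasm and is resynthesized on activation. It was the most abundant inhibitor per length in every library, and measured 3999, 4691 and 5337 CPM in CD103+ LN DCs and 4019, 5834 and 5169 CPM in CD11b+ LN DCs. CD4+ splenic DCs held 1633, 3134 and 1344 CPM, CD8+ splenic DCs 850.2, 1181 and 564 CPM and monocytes 1094, 1111 and 986 CPM. All LN libraries lay above all splenic libraries, and CD4+ splenic DC replicate 2 stood apart from its replicates. The organ difference was 5.40-fold in DC1 (log2 fold change 2.43, SE 0.31, adjusted p = 3.53e-06) and 2.46-fold in DC2 (log2 fold change 1.30, SE 0.30, adjusted p = 0.00235). Relative to Nfkb1 per length, Nfkbia stood at ratios of 70.4, 84.9 and 74.2 in CD103+ LN DCs and 53.1, 71.1 and 49.7 in CD11b+ LN DCs, and of 3.49 to 12.5 in the splenic libraries.

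Nfkbib (ENSMUSG00000030595, chr7:28758251-28767512) encodes IkBb and was the one member past the threshold between the LN DC subtypes. It measured 383, 309 and 244 CPM in CD103+ LN DCs and 182, 191 and 94.6 CPM in CD11b+ LN DCs, a 2.00-fold difference (log2 fold change 1.00, SE 0.27, adjusted p = 0.0176). In the 3 splenic subtypes, none of which differed from another past the threshold, it stood at 79.2 ± 4.82 CPM in monocytes, 76.99 ± 12.7 in CD8+ DCs and 71.5 ± 22.9 in CD4+ DCs. The LN call was lost without CD103+ LN DC replicate 1 (adjusted p = 0.0798) or CD11b+ LN DC replicate 3 (0.0795), the library with the lowest LN value. Of the exon length of Nfkbib, 16.3% overlaps Ccer2 and Sirt2, and since reads were counted without regard to strand and for every gene they overlapped, its values are uncertain to that extent.

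Nfkbie (ENSMUSG00000023947, chr17:45555716-45563169), which encodes IkBe, rose 3.00-fold from splenic CD8+ to CD103+ LN DCs (58.2 ± 10.1 and 175 ± 6.25 CPM, log2 fold change 1.59, SE 0.23, adjusted p = 1.91e-05). In DC2 it measured 103 ± 28.5 CPM in spleen and 138 ± 41.3 in LN, a difference that did not pass the threshold (95% interval of the log2 difference -0.05 to 0.91, adjusted p = 0.167). It passed without CD4+ splenic DC replicate 3 (log2 fold change 0.68, adjusted p = 0.0327). Monocytes held 71.9 ± 9.19 CPM.

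Nfkbiz (ENSMUSG00000035356, chr16:55811375-55838899) encodes IkBz, a nuclear member of the family that acts as a cofactor at a subset of targets. It was highest in monocytes, at 262, 189 and 202 CPM, and lowest in CD8+ splenic DCs, at 47.1, 51.3 and 35.8 CPM. CD4+ splenic DCs held 151, 159 and 118 CPM, CD11b+ LN DCs 128, 91.8 and 142 CPM and CD103+ LN DCs 71.2, 77.2 and 113 CPM. Every monocyte library was above every library of the other subtypes, and every CD8+ splenic DC library was below them. The organ difference depended on the lineage, with a 1.95-fold higher level in LN for DC1 (log2 fold change 0.96, SE 0.23, adjusted p = 0.00214) and none past the threshold for DC2 (log2 fold change -0.24, adjusted p = 0.451).

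Tnfaip3 (ENSMUSG00000019850, chr10:19000910-19015657) encodes A20, a ubiquitin-editing enzyme that dampens signaling upstream of IKK. It measured 824, 1063 and 1244 CPM in CD103+ LN DCs and 935, 1086 and 1572 CPM in CD11b+ LN DCs. In spleen the values were 179, 264 and 256 CPM in CD4+ DCs, 94.1, 114 and 117 CPM in CD8+ DCs and 192, 150.4 and 152 CPM in monocytes, all below every LN library. The organ difference was 9.65-fold in DC1 (log2 fold change 3.27, SE 0.25, adjusted p = 5.69e-09) and 5.14-fold in DC2 (log2 fold change 2.36, SE 0.24, adjusted p = 4.36e-07), the largest of the 10 members in DC2. Its share of the inhibitor TPM was 4.29 ± 0.336% in CD103+ LN DCs and 4.76 ± 1.12% in CD11b+ LN DCs, and 2.48 ± 0.983% to 2.83 ± 0.343% in the splenic subtypes.

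Across the organs, 8 of the 10 members were higher in LN when both lineages were averaged, against 26.5% of all genes tested, and 1 was lower, against 23.4%. The median log2 fold change was 1.53 over the members and 0.03 over all genes. The averaged difference was 7.04-fold for Tnfaip3 and 6.81-fold for Relb, and 2.44-fold in the opposite direction for Nfkb1. In 6 members, Rel, Relb, Nfkb2, Nfkbia, Nfkbib and Tnfaip3, every LN DC library exceeded every splenic DC library, as in 12.4% of all genes. Nfkbiz alone did not pass the threshold (log2 fold change 0.36, adjusted p = 0.0716), and its call appeared without CD103+ LN DC replicate 1 (adjusted p = 0.0447) or CD11b+ LN DC replicate 2 (0.0325).

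Within DC1, 9 members were higher in LN CD103+ than in CD8+ splenic DCs, against 23.8% of all genes, and Nfkb1 was lower, against 21.8%, with a median log2 fold change of 2.18 over the members. Within DC2, 6 members were higher in LN CD11b+ than in CD4+ splenic DCs, against 19.3% of all genes, and Nfkb1 was lower, against 13.8%, with a median of 0.87. The medians of all genes in these comparisons were 0.00 and 0.05. Immediate early and heat shock genes were measured as signs of handling. Their sum was 12990 to 16030 CPM in LN DCs and 4344 to 8537 CPM in splenic DCs. Of 18, 9 were higher and 5 lower in LN for DC1, and 6 were higher and 3 lower for DC2, so the sum mixed both directions. Nr4a1 was 3.685-fold lower in LN over both lineages, Egr2 5.23-fold lower in DC1 and Egr3 6.71-fold lower in DC2. Hspa1b, a heat shock gene with the near-identical copy Hspa1a, measured 4769 ± 414 CPM in CD103+ LN DCs, 3451 ± 689.5 in CD11b+ LN DCs, 501 ± 151 in CD8+ splenic DCs and 604 ± 141 in CD4+ splenic DCs, and its part in the members' differences was not tested.

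**Figure D3:**
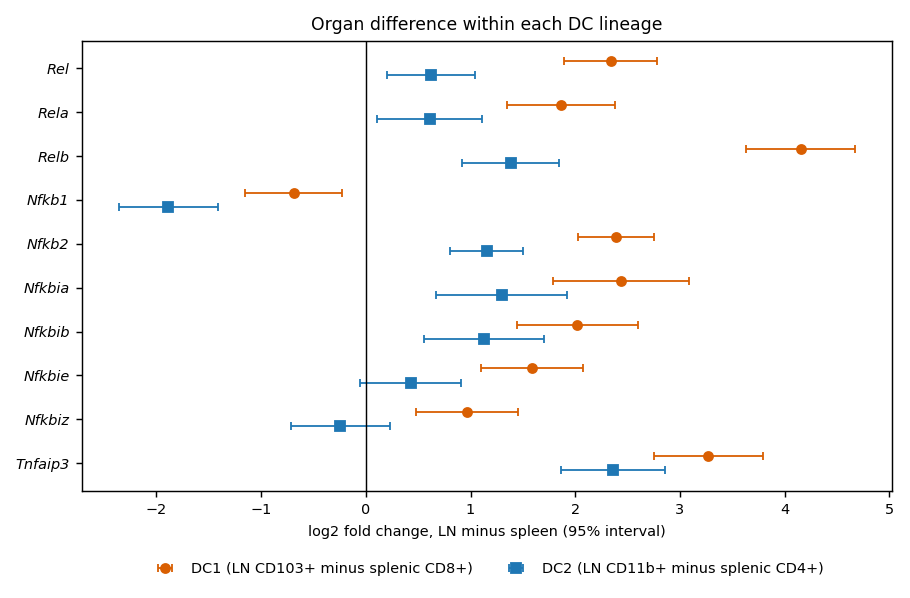
Log2 fold change between LN and spleen of the 10 genes in DC1 (circles) and in DC2 (squares), with 95% intervals from the edgeR fit. The DC1 value lies to the right of the DC2 value for every gene, and Nfkb1 is below 0 in both.

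In spleen, none of the members was higher in CD8+ than in CD4+ DCs, against 13.1% of all genes, and 9 were lower, against 14.4%, with a median log2 fold change of -1.22. Relb was 5.77-fold lower (log2 fold change -2.53, SE 0.23, adjusted p = 2.13e-07), Nfkb1 3.25-fold lower (adjusted p = 1.50e-05), Rel 3.21-fold lower (adjusted p = 7.62e-06) and Nfkbiz 3.19-fold lower (adjusted p = 3.13e-05). In all 9, each CD8+ DC library lay below each CD4+ DC library, a separation that was not counted over all genes for this comparison. Nfkbib was the exception (95% interval of its log2 difference -0.46 to 0.67). The call of Nfkbie was lost without CD8+ splenic DC replicate 1 or CD4+ splenic DC replicate 3 (adjusted p = 0.0546 and 0.0707). Of the 18 immediate early and heat shock genes, 0 were higher and 3 lower in CD8+ DCs, Zfp36 by 3.41-fold, Nr4a1 by 2.43-fold and Dusp1 by 2.15-fold. Their sum was 4344 to 5300 CPM in CD8+ and 6375 to 8537 CPM in CD4+ DCs, and its part in the members' differences was not tested.

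In LN, 1 member, Nfkbib, was higher in CD103+ than in CD11b+ DCs, against 5.22% of all genes, and 0 were lower, against 7.73%. For the other 9 members the 95% intervals of the log2 difference lay between -0.97 and 0.82, which bound the differences these libraries allow. The libraries of Nfkb2 did not overlap, those of CD103+ LN DCs being higher (adjusted p = 0.287). The values of Nfkb1 did not overlap either (186 ± 27.8 and 264 ± 45.0 CPM), but its difference missed the threshold (log2 fold change -0.51, adjusted p = 0.148).

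The interaction of organ and lineage compared the signed organ difference, LN minus spleen, of DC1 with that of DC2. It is the same contrast as the change of the lineage difference between organs. It was positive and past the threshold for 7 members, against 5.17% of all genes, and negative for 0, against 6.03%. The estimate was largest for Relb (log2 fold change 2.77, SE 0.31, adjusted p = 1.48e-05) and Rel (log2 fold change 1.72, SE 0.29, adjusted p = 5.63e-04). For Nfkb1, which was lower in LN in both lineages, a positive value means a smaller fall in DC1. All 5 subunits, Nfkbie and Nfkbiz were past the threshold. Nfkbia, Nfkbib and Tnfaip3 had positive estimates that missed it (1.14, 0.89 and 0.91, adjusted p = 0.0883, 0.144 and 0.0781), of which Nfkbia and Tnfaip3 passed it with the replicate number as a block (adjusted p = 0.0288 and 0.0312) and with DESeq2 (0.0404 and 0.0406), and Nfkbia also with no filter on low counts (0.00772). With limma on log2(TPM + 1) the call of Nfkbie was lost (0.0595). Leaving out a library brought Tnfaip3 past it for CD4+ splenic DC replicate 1, CD103+ LN DC replicate 1 or CD11b+ LN DC replicate 3 (0.0386, 0.0478 and 0.0219), Nfkbia for CD8+ splenic DC replicate 2 or CD4+ splenic DC replicate 3 (0.0408 and 0.0328) and Nfkbib for CD4+ splenic DC replicate 3 (0.0436). The call of Nfkbie was lost in 7 of the 15 fits that left out a library (adjusted p of at most 0.0645), those without CD8+ splenic DC replicate 1 or 2, CD4+ splenic DC replicate 3, CD103+ LN DC replicate 2 or 3, or CD11b+ LN DC replicate 1 or 2. Nfkbiz was lost without CD8+ splenic DC replicate 3, CD103+ LN DC replicate 3 or CD11b+ LN DC replicate 2 (0.0538, 0.0677 and 0.0532), Rela without CD8+ splenic DC replicate 1 or CD11b+ LN DC replicate 1 (0.0506 and 0.0604) and Nfkb1 without CD103+ LN DC replicate 3 (0.0503), which left 4 members past the threshold. The comparisons between the 4 DC subtypes share libraries and are not independent of each other.

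**Figure D4:**
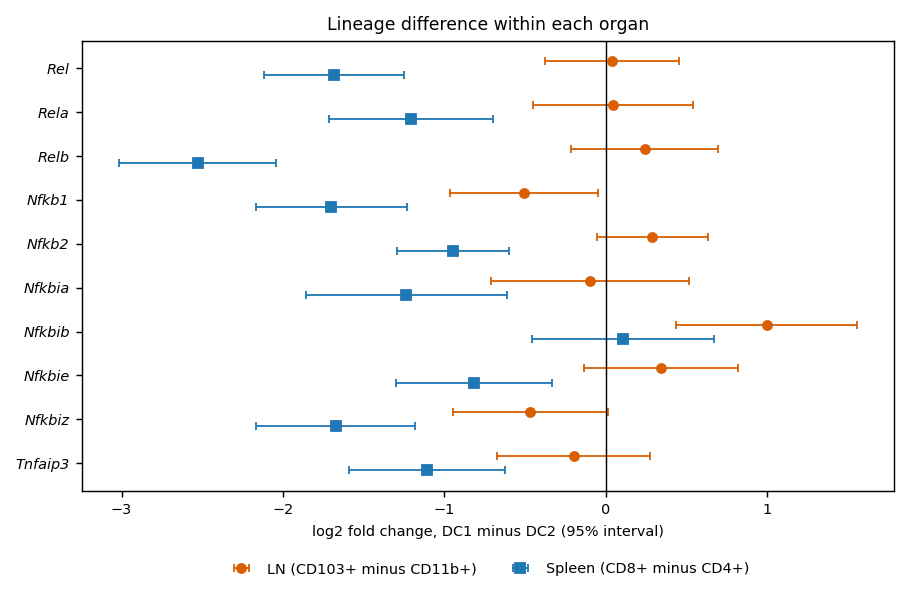
Log2 fold change between DC1 and DC2 of the 10 genes in LN (circles) and in spleen (squares), with 95% intervals. In spleen 9 genes lie below 0 with intervals that exclude it, whereas in LN the intervals of 8 genes include 0, that of Nfkb1 lies below it and that of Nfkbib above.

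Monocytes were compared with DCs of the same organ. Against the mean of the splenic DC subtypes, 3 members passed the threshold, against 48.2% of all genes. Nfkbiz was 2.72-fold higher in monocytes (log2 fold change 1.44, SE 0.19, adjusted p = 4.21e-06). Relb was 3.31-fold lower (log2 fold change -1.73, SE 0.21, adjusted p = 1.44e-06) and Nfkb1 1.43-fold lower (adjusted p = 0.0323), and the call of Nfkb1 was lost without monocyte replicate 1, 2 or 3 (adjusted p = 0.0893, 0.0769 and 0.107), CD8+ splenic DC replicate 1 (0.0824) or CD4+ splenic DC replicate 3 (0.0594). The other 7 members did not pass the threshold, with 95% intervals of the log2 difference between -0.86 and 0.74, and Rel was past it without monocyte replicate 2 (adjusted p = 0.0251). With limma on log2(TPM + 1), Nfkb2 was past it (log2 fold change 0.37, adjusted p = 0.0174) and Nfkb1 was not (0.112). By mean CPM, monocytes lay between the splenic DC subtypes for 7 members, below both for Relb and above both for Nfkbiz and Nfkbib. The summed immediate early and heat shock genes measured 12830 to 13780 CPM in monocytes and 4344 to 8537 CPM in splenic DCs. Of the 18, 9 were higher and 6 lower in monocytes (Atf3 7.34-fold and Junb 5.37-fold higher), against 24.26% and 23.99% of all genes. The part of the immediate early and heat shock genes and of the neutrophil markers in the monocyte differences was not tested. Relative to CD8+ splenic DCs, 5 members differed, against 42.1% of all genes, and all 5, Rel, Rela, Nfkb2, Nfkbiz and Tnfaip3, were higher in monocytes. Relative to CD4+ splenic DCs, 4 members differed, against 48.0% of all genes, with Relb, Nfkb1 and Nfkbia lower and Nfkbiz higher in monocytes.

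In the remaining pairs of subtypes, 10 members differed between monocytes and CD103+ LN DCs, against 53.2% of all genes, and 9 between monocytes and CD11b+ LN DCs, against 47.8%. Nfkbiz was higher in monocytes in both and Nfkb1 in the first, while the other 8 members were lower. CD103+ LN DCs differed from CD4+ splenic DCs in 10 members, against 47.0%, and LN CD11b+ from CD8+ splenic DCs in 9, against 39.9%. By mean CPM, 6 members (Rel, Rela, Nfkb2, Nfkbia, Nfkbie and Tnfaip3) had the same order from spleen to LN, with CD8+ splenic DCs lowest, then monocytes, CD4+ splenic DCs and both LN subtypes. Not every step of that order passed the threshold. The step between the LN subtypes passed in none of the 6, although the Nfkb2 libraries did not overlap, and that between CD4+ splenic DCs and monocytes passed for Nfkbia alone, although the libraries of Rel and Nfkbie did not overlap (adjusted p = 0.0655 and 0.0738) and the unadjusted 95% intervals of Rel, Nfkbie and Tnfaip3 excluded 0. Monocytes and CD8+ splenic DCs were not told apart for Nfkbia and Nfkbie (adjusted p = 0.445 and 0.307), nor splenic CD4+ and CD11b+ LN DCs for Rela and Nfkbie (0.0571 and 0.167). For Nfkb1, CD4+ splenic DCs stood above the rest (adjusted p = 5.68e-05 against monocytes) and no other step between neighbours passed the threshold.

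The rest of the pathway was followed in lists of genes by role. Beside each list, 23.8% of all genes tested were higher and 21.8% lower in LN for DC1, and 19.3% and 13.8% for DC2. Of 7 genes of the noncanonical pathway, 4 were higher and 1 lower in LN for DC1 (median log2 fold change 1.97), and 3 were higher and 0 lower for DC2 (median 0.80). Cd40, the receptor of CD40 ligand, measured 824 ± 104 CPM in CD103+ LN DCs, 666 ± 158 in CD11b+ LN DCs, 189.7 ± 56.4 in CD4+ splenic DCs and 86.6 ± 19.2 in CD8+ splenic DCs. Tnfrsf11a, which encodes RANK, was 9.40-fold higher in LN for DC1 and 5.68-fold for DC2 (adjusted p = 2.91e-09 and 1.11e-07). Traf3, an adaptor that keeps NIK low, was 4.97-fold and 1.74-fold higher (adjusted p = 4.11e-07 and 0.0138). Map3k14 was lower in splenic CD8+ than CD4+ DCs (74.4 ± 11.2 and 163 ± 29.4 CPM, adjusted p = 2.50e-04) and higher in LN CD103+ than CD11b+ DCs (291 ± 12.9 and 192 ± 34.7 CPM, adjusted p = 0.0438).

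Of 26 genes of the IKK complex, its kinases and adaptors, 13 were higher and 2 lower in LN for DC1, and 8 were higher and 3 lower for DC2, with medians of 0.50 and -0.19. Birc2, a ubiquitin ligase of the cIAP family, rose from 61.0 ± 7.11 CPM in CD8+ splenic DCs to 987 ± 176 in CD103+ LN DCs (log2 fold change 4.02, SE 0.23, adjusted p = 2.82e-10), and from 126 ± 33.5 in CD4+ splenic DCs to 768 ± 61.3 in CD11b+ LN DCs (log2 fold change 2.60, SE 0.22, adjusted p = 4.55e-08). Ikbke, a kinase related to IKK, measured 59.3 ± 9.75 CPM in monocytes, 12.03 ± 2.58 in CD103+ LN DCs, 16.3 ± 3.62 in CD11b+ LN DCs and about 1 CPM in the splenic DC subtypes.

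Of 18 other IkB family members and negative regulators, 9 were higher and 4 lower in LN for DC1, and 5 were higher and 5 lower for DC2 (medians 0.39 and 0.22). Tnip3 and Tnip2, which encode partners of A20, were among them, with Tnip3 at 31.9 ± 5.19 CPM in CD103+ LN DCs and 23.8 ± 2.80 in CD11b+ LN DCs and about 1 CPM in splenic DCs. Among 17 receptors and ligands, 6 were higher and 4 lower in each lineage. The TNF receptors went in opposite directions. Tnfrsf1b, which encodes TNFR2, rose 25.5-fold in LN for DC1 and 5.56-fold for DC2 (adjusted p = 1.34e-10 and 1.27e-07), while Tnfrsf1a, which encodes TNFR1, was 3.53-fold lower over both lineages (adjusted p = 2.95e-09). Tnfrsf9, which encodes 4-1BB, measured 312 ± 37.8 CPM in CD103+ LN DCs and 274 ± 67.1 in CD11b+ LN DCs, and 2.49 ± 1.52 and 6.14 ± 3.69 in splenic CD8+ and CD4+ DCs.

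Of 27 textbook NF-kB target genes tested (28 listed), 17 were higher and 4 lower in LN for DC1, and 19 were higher and 2 lower for DC2, with medians of 2.38 and 1.85. In spleen, 6 were higher and 12 lower in CD8+ than in CD4+ DCs (median -0.55), and in LN 7 were higher and 7 lower in CD103+ than in CD11b+ DCs (median 0.51). The shares of all genes were 13.1% higher and 14.4% lower in spleen, and 5.22% and 7.73% in LN. Fscn1, which encodes the actin-bundling protein fascin, measured 6661 ± 998 and 3178 ± 884 CPM in LN CD103+ and CD11b+ DCs and 62.1 ± 8.02 and 117 ± 50.6 in splenic CD8+ and CD4+ DCs. The chemokine gene Ccl22 measured 1299 ± 195 and 656 ± 125 CPM in LN and 10.1 ± 10.04 and 1.49 ± 0.924 in spleen in the same order. Cxcl1 had no count in CD4+ splenic DCs and was at least 206.9-fold higher in CD11b+ LN DCs (31.6 ± 17.6 CPM), with 3 counts over the group in place of 0, a limit that covers counting error only. The targets Fscn1, Ccl22 and Ccr7 are also in the list of migratory DC markers. Against the mean of splenic DCs, 5 targets were higher in monocytes and 14 lower, where 24.26% of all genes were higher and 23.99% lower. The lists had been written with earlier results of these data known, so their counts describe these libraries and are not an independent test.

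**Figure D5:**
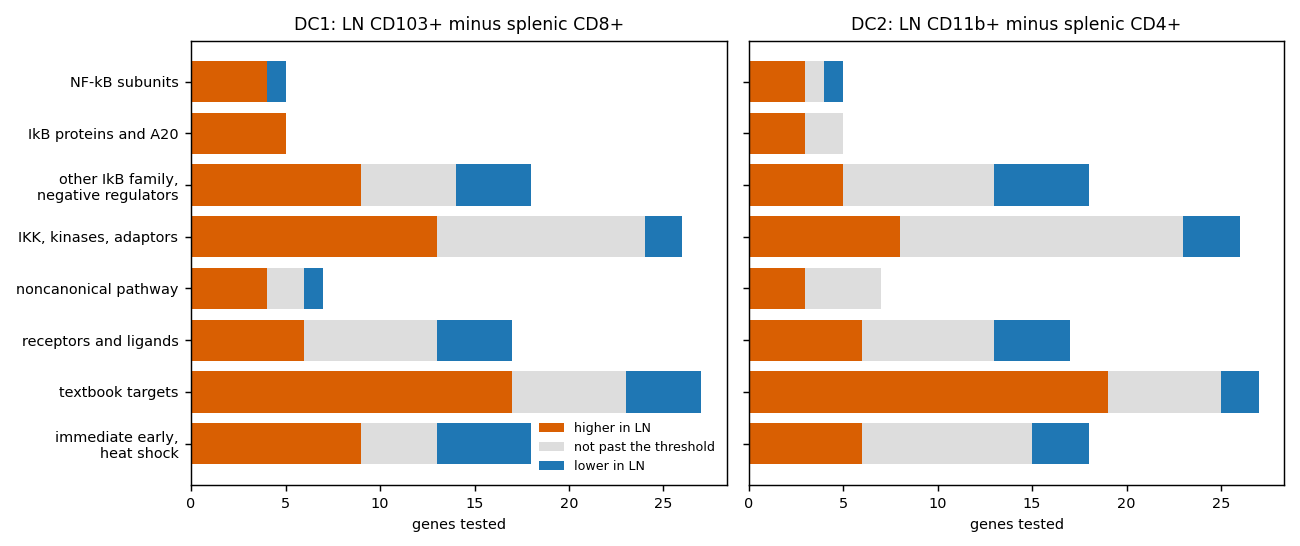
Number of genes tested in each list that were higher in LN, lower in LN or not past the threshold (adjusted p of 0.05), for DC1 (left) and DC2 (right). Textbook targets have 17 of 27 genes higher in LN for DC1 and 19 for DC2, whereas receptors and ligands have 6 higher and 4 lower in each. Of all genes tested, 23.8% were higher and 21.8% lower for DC1, and 19.3% and 13.8% for DC2.

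As a description over the 15 libraries, which share subtype and organ, the pairwise Pearson r of log2 CPM among Rel, Rela, Relb, Nfkb2, Nfkbia, Nfkbie and Tnfaip3 ranged from 0.81 to 0.96 over 21 pairs. These 7 were grouped after their values were seen. With the same 7, Nfkbib had r of 0.59 to 0.82 and Nfkbiz r of -0.02 to 0.47. Nfkb1 had r of -0.73 to 0.41 with the other 9 members, lowest with Nfkbib and highest with Nfkbiz. Among 10246 genes with at least 10 CPM in their highest subtype, those most like Relb were Suco, Aebp2, Caprin2, Cd274 and Kcnk6 (r of 0.98 each). Cd274, which encodes PD-L1, had mean levels of 372 and 344 CPM in LN CD103+ and CD11b+ DCs, 244 CPM in CD4+ splenic DCs, 41.3 CPM in CD8+ splenic DCs and 43.5 CPM in monocytes. The genes most like Tnfaip3 were Cflar, Traf6, Etv3, Wnt11 and Ssh1 (r of 0.98 to 0.99), of which Cflar, an inhibitor of caspase-8, and Traf6, a ubiquitin ligase of the canonical pathway, were in the lists above. Those most like Nfkbia were Arfrp1, Rubcn, Zfp281, Dip2b and Med11 (r of 0.97 to 0.98).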

How the data were processed

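Poly(A) RNA of 15 libraries was amplified (SMARTer) and sequenced on Ion Torrent by the authors. Reads of at least 30 bases were mapped to mm10 with STAR 2.4.0j, and unique reads were counted per Ensembl 75 gene with featureCounts (Subread 1.5.2), without strand and for every gene overlapped. The authors deposited these gene counts and the TPM made from them. Monocyte libraries joined 2 runs each.
Groups came from the labels. Each library pooled 5 mice. Whether subtypes of 1 organ and replicate number came from the same mice is not given in the sources used here, so p-values measure the spread between these libraries. The 14456 of 38924 genes above 1 CPM in 3 or more libraries were tested with edgeR 4.0.16 (R 4.3.3): TMM scaling, quasi-likelihood, 1 mean per subtype over all 15 libraries, 10 residual degrees of freedom, Benjamini-Hochberg adjustment over all genes tested, and a threshold of 0.05. Intervals are 95% and unadjusted. The script was tested on simulated data. Symbols came from GENCODE vM21 for 37607 identifiers.
Besides the 10 members, at most 3 genes of a list and comparison were eligible to be named, those with the largest change among genes past the threshold whose mean reached 10 CPM in 1 of the groups and whose libraries did not overlap. For each of the 3 members with the widest range, the 5 genes with the highest Pearson r were named too. The sort markers, H2-Ab1 and the other cell markers named fall outside this rule and were named after their values were seen. The members and lists were chosen with earlier results of these data known.
Alternatives were DESeq2 1.42.0, its size factors in edgeR, other filters on low counts, a minimum fold change, limma 3.58.1 on log2(TPM + 1) of the deposited TPM, a fit of only the subtypes compared, the replicate number as a block, and leaving out each library. Deviations of same-numbered libraries from their group means correlated above 0.1 in every pair for both splenic DC subtypes, both LN subtypes, and splenic CD4+ DCs with each LN subtype. This held in 14 of 30 cases and in none with monocytes. Between any DC subtypes, the same-numbered library gave the highest correlation in every case, which was not so with monocytes. No label states a shared day or animal, and the main fit took no account of replicate number.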

Additional observations from a re-analysis of the deposited data

Results flagged for a closer look

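The signed log2 difference, LN minus spleen, was higher in DC1 than in DC2 for 7 members. This was a test of the difference itself (interaction of organ and lineage, edgeR quasi-likelihood, adjusted over all genes). On the log2 scale the excess in DC1 was 2.77 for Relb, 1.72 for Rel, 1.25 for Rela, 1.23 for Nfkb2, 1.21 for Nfkbiz, 1.19 for Nfkb1 and 1.16 for Nfkbie. For Nfkb1 a positive value means a smaller fall in LN. The same contrast is the difference between DC1 and DC2 in LN minus that in spleen, and organ, cohort and gate cannot be told apart in it.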

How the results depend on the processing

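No called log2 fold change of a member changed sign under the alternatives run. Of 1610 member values under these alternatives, called or not, 1551 kept their side of the threshold, 38 fell below it and 21 rose above it. The sign of values not called in either fit was not followed. Of 364 counts, 356 stayed within 1.5 times. Between LN CD103+ and CD11b+ DCs the member called, Nfkbib, numbered 0 with a minimum absolute log2 fold change of 1, and 0 to 1 when libraries were left out, while all genes called ranged from 1216 (without CD103+ LN DC replicate 2) to 2171, against 1872. Members past the threshold for the interaction ranged from 4 to 8 with a library left out, against 7. Genes called between splenic CD8+ and CD4+ DCs were 2600 in the fit of only those subtypes and 2643 with the minimum fold change, against 3966, and between LN and spleen 4399 with the minimum fold change, against 7214, since that threshold only removes genes. For the fit of only the subtypes the cause was not tested. With the replicate block, 9 members passed for the interaction and 8 for LN against spleen in DC2. The block changed no member call but those of Rela, Nfkbia and Tnfaip3. With 3 libraries a group, the variance between pairs of replicates was 5.19 to 57.8 times the counting variance, as an average over well-counted genes. That average does not show whether depth limited the members or genes with low counts.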
